A study of Saccharomyces cerevisiae with 48 samples.

Results

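The segment described here is the stretch of budding yeast chromosome X (Chr X) around IME2, from base 113001 to base 346000 of the sacCer3 build (R64). It was chosen by position alone, as all 1-kb bins between the one that holds ARS1007 on the left and the end of that stretch on the right. Of 233 possible bins, 227 are present in the deposited files, of 11338 bins in the whole series. The 6 bins from 198001 to 204000, over the transposon YJLWTy4-1, are in no file, and the bin from 204001 to 205000, which holds ARS1008, is absent from every file of the strains deleted for that origin. These strains therefore have 226 bins, and every bin present in a strain gave a replication time. The segment holds 121 annotated genes, of which 114 code for proteins.

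Whole-genome libraries came from 4 strains, and each synchronized culture gave 1 G1 sample and 11 samples at 5, 10, 15, 20, 25, 30, 35, 40, 45, 50 and 60 min after release. The deletion strains on Chr X were sml1∆ SSDDCS ars1008∆ ars1009∆ and sml1∆ ars1008∆ ars1009∆. The strains that retain both origins were sml1∆ SSDDCS ars816∆ ars818∆ and sml1∆ ars816∆ ars818∆, whose deleted origins lie on Chr VIII. All were haploid MATa cells of the W303 background and carried rad5-535 and can1-100 as well as the markers ade2-1, leu2-3, 112, his3-11, 15, trp1-1 and ura3-1. SSDDCS strains over-express Sld2, Sld3, Dpb11, Dbf4, Cdc45 and Sld7 from galactose-inducible promoters at leu2, his3 and trp1, and have sml1 replaced by HphNT. In the other strains sml1 was replaced by URA3, and all cultures were grown in raffinose medium, arrested in G1 with alpha factor and released in galactose. Each strain has 1 time course, so nothing below has a replicate check, and SDs are over neighboring bins, which are not replicates. Ratios are means over a culture, so later replication in every cell and a mixture of cells with different timing cannot be told apart. Over the genome the ars1008∆ ars1009∆ strains ran earlier than their ars816∆ ars818∆ partners, with median replication times of 16.1 min against 20.7 min in the SSDDCS pair and 22.3 min against 25.2 min in the sml1∆ pair.

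Replication origins in budding yeast are short sequences, called autonomously replicating sequences (ARS), to which the origin recognition complex binds before S-phase. An origin that fires sends a fork to either side, and DNA without an active origin is copied passively when a fork from a neighbor arrives, so that forks from both sides meet between origins. The order in which origins fire is limited by a few initiation factors, among them the 6 proteins over-expressed in the SSDDCS strains. IME2 encodes a protein kinase of meiosis and lies between ARS1008 and ARS1009.

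The annotation lists 5 origins in the segment. ARS1007 occupies 113678 to 113749, ARS1008 204029 to 204917, ARS1009 228552 to 229043, ARS1010 298981 to 299245 and ARS1011 337281 to 337529, and none is annotated between ARS1007 and ARS1008. IME2 (YJL106W) lies at 221390 to 223327. The sequences of the deleted origins are shown because the results turn on whether a strain has them. That of ARS1007, which every strain has, is shown as the origin at the left end. They are RefSeq sequence of the R64 assembly of strain S288C, plus strand, with the best matches on either strand to the ARS consensus sequence of 11 letters in capitals.
ARS1007, X:113678-113749: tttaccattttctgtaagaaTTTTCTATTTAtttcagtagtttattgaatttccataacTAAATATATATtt
ARS1008, X:204148-204297: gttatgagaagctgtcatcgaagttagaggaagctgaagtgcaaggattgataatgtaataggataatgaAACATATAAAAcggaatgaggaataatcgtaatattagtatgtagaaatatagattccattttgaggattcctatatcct
ARS1009, X:228741-228890: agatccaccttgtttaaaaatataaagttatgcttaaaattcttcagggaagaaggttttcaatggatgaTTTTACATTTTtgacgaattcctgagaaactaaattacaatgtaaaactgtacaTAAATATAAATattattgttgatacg
ARS1009 held 2 full matches, 1 on each strand, at 228811 to 228821 and on the minus strand further right. ARS1007 and ARS1008 matched at 10 of 11 letters at best, at 2 and 3 places, of which the stretch of ARS1008 shown holds 1. A full match was found in 3.08% of all genome windows of the length of ARS1009, and in 124 of 352 annotated origins (35.2%). At least 10 letters matched in 60.4% of windows of the length of ARS1008 and in 6.81% of windows of the length of ARS1007. A match describes these letters only, and how much of each origin was removed is not given in the sources used here.

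To follow forks into the gap, the time at which a bin reached a ratio of 1.5 to G1, halfway between 1 and 2 copies, was taken as its replication time (T_rep). In the strains that lack ARS1008 and ARS1009, T_rep formed 1 wide late valley over IME2. The latest smoothed bin of the sml1∆ SSDDCS ars1008∆ ars1009∆ strain lay at 223.5 kb, at the end of IME2, with a T_rep of 35.1 min, and bins within 1 min of it spanned 220001 to 244000. In the sml1∆ ars1008∆ ars1009∆ strain it lay at 237.5 kb, in LSB6, a phosphatidylinositol kinase gene, with a T_rep of 41.1 min and a span of 234001 to 244000. The spans overlap, so these profiles do not resolve the 14 kb between the 2 positions. Neither span is unbroken, with 11 bins within 1 min of the latest in the SSDDCS strain and 8 in the sml1∆ strain. In both strains this point was later than the latest smoothed bin outside the segments around IME2 and NDT80, by 5.29 min in the SSDDCS strain and by 6.58 min in the sml1∆ strain. Those latest outside bins were on Chr XII at 29.9 min and on Chr XIII at 34.5 min.

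With ARS1008 and ARS1009 in place the valley lay elsewhere. The latest smoothed bin between ARS1007 and ARS1010 was at 262.5 kb (28.4 min) in the sml1∆ SSDDCS ars816∆ ars818∆ strain, at the border of GWT1 and DPB11, and at 266.5 kb (34.7 min) in the sml1∆ ars816∆ ars818∆ strain, in SIP4. On the left, from 140 kb to ARS1008, the earliest bin of the SSDDCS deletion strain was 159.5 kb (17.4 min). That of the sml1∆ deletion strain was 154.5 kb (23.0 min), and no origin is annotated at either position. In both retaining strains it was 204.5 kb (17.1 and 21.3 min), the bin of ARS1008, on which that window ends. Both retaining strains also had a local early point further left. In the SSDDCS retaining strain smoothed T_rep was 27.031, 22.499 and 24.043 min in the bins from 142001, 165001 and 175001. In the sml1∆ retaining strain it was 29.746, 26.588 and 28.002 min in the bins from 151001, 164001 and 173001. Between 250 and 320 kb the earliest bin lay close to ARS1010 in every strain, at 298.5 kb (13.6 min) and 304.5 kb (23.3 min) in the SSDDCS and sml1∆ deletion strains, and at 298.5 kb (19.0 min) and 301.5 kb (26.1 min) in the SSDDCS and sml1∆ retaining strains. The early points that flank IME2 were thus 139 and 150 kb apart in the SSDDCS and sml1∆ deletion strains, and the latest bin lay 64 and 83 kb from the left one. The midpoints between the flanking points were 229.0 and 229.5 kb.

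**Figure D1:**
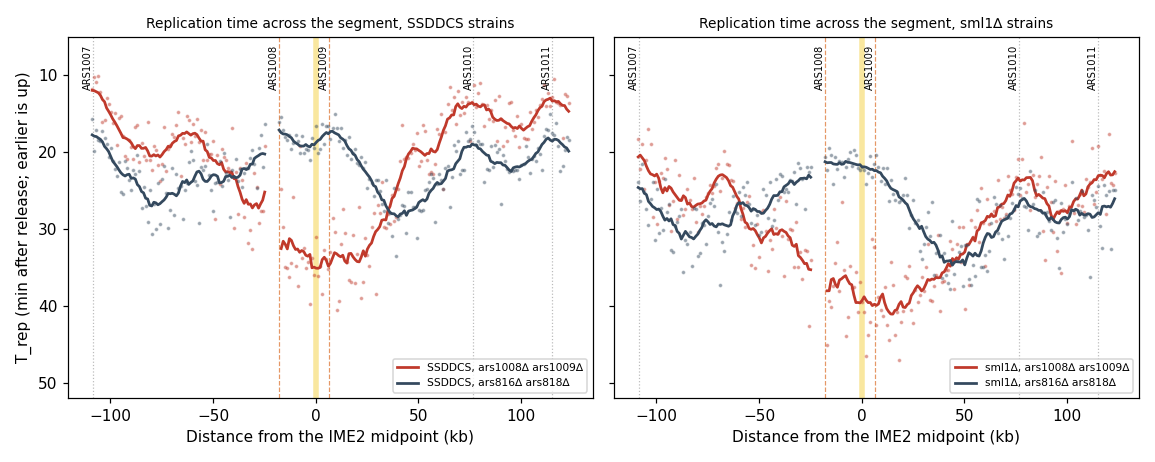
Replication time of each 1-kb bin (points) and its mean over 11 bins (lines) against the distance from the IME2 midpoint, with early replication at the top, for the deletion strain (red) and the retaining strain (dark blue) of the SSDDCS pair (left) and the sml1∆ pair (right). Dotted lines mark annotated origins, dashed lines the deleted ones and the yellow band IME2. The red lines dip to 35.1 min at 223.5 kb (left) and 41.1 min at 237.5 kb (right), where the blue lines stand at 18.5 and 24.9 min.

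The lag of IME2 behind its own flanks compares positions within 1 time course, so an offset between cultures cancels. The 10 bins within 5 kb of the IME2 midpoint had a mean T_rep of 35.2 ± 2.55 min in the SSDDCS and 40.1 ± 3.39 min in the sml1∆ deletion strain, and 19.0 ± 1.52 min and 21.8 ± 1.28 min in the SSDDCS and sml1∆ retaining strains. Every one of these bins was later in the deletion strain than all of them in its retaining partner. IME2 lag was measured from the mean of the earliest points on either side, with the right one searched to the end of the segment. It was 20.0 min in the SSDDCS and 17.4 min in the sml1∆ deletion strain, against 1.32 min and -1.84 min in the retaining strains. The right points were 336.5 and 345.5 kb in the deletion strains, and 335.5 and 301.5 kb in the retaining strains. With the right points near ARS1010 given above, the lags were 19.7, 17.0, 0.933 and -1.84 min. The left points were 159.5 and 154.5 kb in the deletion strains but 204.5 kb, the bin of ARS1008, in both retaining strains. Deletion and retaining strains thus have unlike flanks.

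The slope of T_rep along each flank gives an apparent rate of fork travel, which also takes in any origin that fires along the way. On the left flank the rate was 3.51 ± 0.445 kb per min (SE over 48 bins) in the SSDDCS and 5.42 ± 0.613 kb per min (67 bins) in the sml1∆ deletion strain. On the right flank, where the earliest bin up to the end of the segment lay near ARS1011 or beyond it, the rates were 4.53 ± 0.298 and 6.31 ± 0.546 kb per min in the SSDDCS and sml1∆ deletion strains. That stretch runs across ARS1010, and with the right end searched only to 320 kb, a limit chosen after the values were seen, the rates were 2.77 ± 0.186 and 3.65 ± 0.302 kb per min. Flanks of at least 20 kb outside the 2 segments had median rates of 3.07 kb per min (quartiles 2.47 and 4.17, 242 flanks) in the SSDDCS and 3.74 kb per min (2.94 and 5.39, 225 flanks) in the sml1∆ deletion strain. The left flank was faster than 64.05% and 75.1% of these, and the right flank to ARS1010 faster than 38.8% and 46.2%. By rate, the left flank and the right flank to ARS1010 thus lay in the range of flanks elsewhere in that strain. The right rates across ARS1010, 4.53 and 6.31 kb per min, were above the upper quartiles of 4.17 and 5.39. None elsewhere was as long as the left flanks of 64 and 83 kb, the longest being 59 and 77 kb. The right flank to ARS1010 in the SSDDCS deletion strain, at 75 kb, was also longer than any elsewhere.

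The narrowing of the gap could also be followed directly in the copy number. The stretch around IME2 with a smoothed ratio under 1.5 in the sml1∆ deletion strain ran from 130001 to 292000 at 25 min, from 163001 to 280000 at 30 min, from 196001 to 263000 at 35 min and from 218001 to 244000 at 40 min, and had closed by 45 min. Its left edge moved 88 kb in 15 min (5.87 kb per min) and its right edge 48 kb (3.2 kb per min). In the SSDDCS deletion strain the stretch does not outline the gap at 15 and 20 min, when ratios around it lay close to 1.5. Bins outside it were also under 1.5, at 1.438 from 180001 to 190000 at 15 min and 1.482 from 237001 to 247000 at 20 min. Of all bins, 56.0% were under 1.5 at 15 min and 22.5% at 20 min. The stretch ran from 207001 to 252000 (45 kb) at 15 min and from 211001 to 225000 (14 kb) at 20 min, and was 85 kb wide at 25 min. From 25 to 35 min it was narrower than in the sml1∆ deletion strain at the same times and its edges moved less per minute. It ran from 184001 to 269000 at 25 min, from 192001 to 264000 at 30 min and from 205001 to 257000 at 35 min, so that its left edge moved 21 kb and its right edge 12 kb in 10 min, or 2.1 and 1.2 kb per min. The lowest smoothed ratio between 140 kb and ARS1010 in this strain was still 1.445 at 40 min, at 233001 to 234000. At IME2 itself the smoothed ratio stood at 1.501 at 40 min and 1.846 at 60 min in the SSDDCS strain, and at 1.472 and 1.955 in the sml1∆ strain. In both retaining strains the IME2 bins were past 1.5 by 25 min.

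At 35 and 40 min, most bins of the deletion strains with a ratio under 1.5 lay in the segment. At 30 min 66 of 225 segment bins of the SSDDCS deletion strain were under a ratio of 1.5, against 1.96% of all bins, and made up 29.7% of all such bins. At 35 min 52 of 226 were, against 0.459% of all bins. Those 52 bins were all the bins of the genome under 1.5 at 35 min, and at 40 min the 25 such bins of the genome (0.221%) were again all in the segment. Without SSDDCS 67 of 226 segment bins of the deletion strain were under 1.5 at 35 min, against 0.875% of all bins, and made up 67.7% of all such bins, a share that was 14.1% at 30 min, 88.2% at 40 min and 2 of 5 bins at 45 min. At 35 min the SSDDCS retaining strain had 0 of 227 (0.0795% of all bins) and the sml1∆ retaining strain 12 of 227 (2.62% of all bins).

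**Figure D2:**
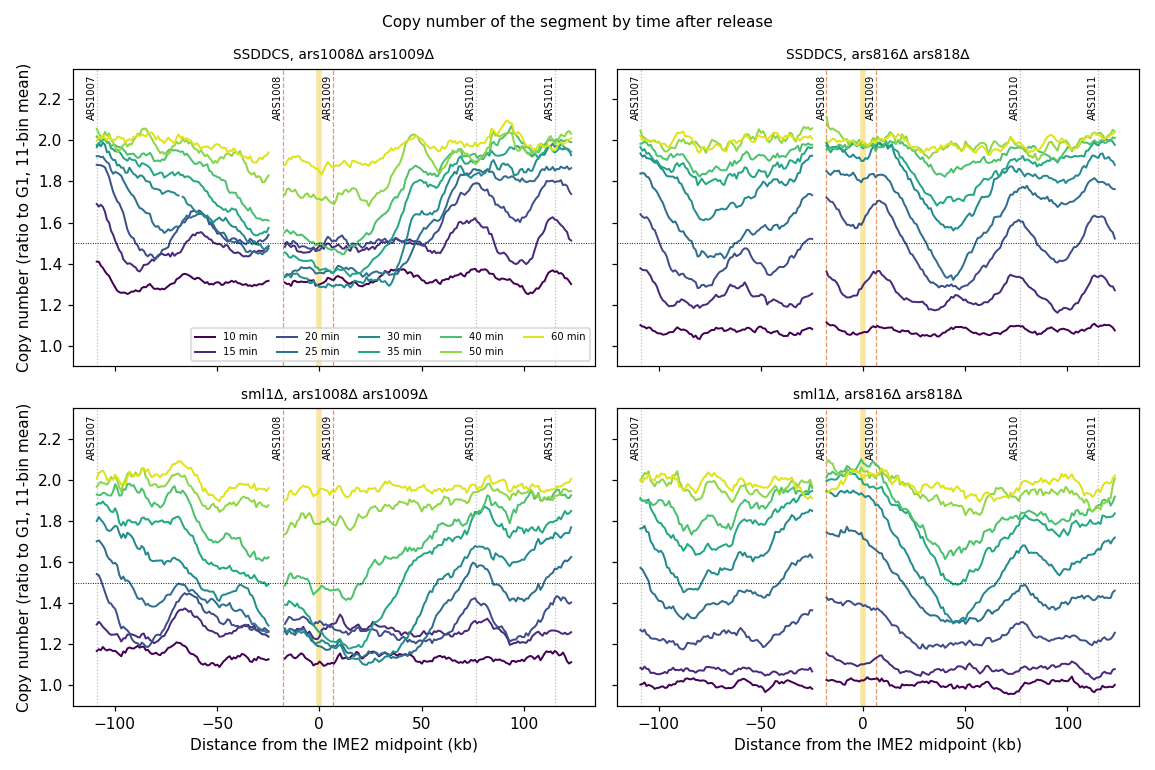
Copy number as the ratio to G1 (mean over 11 bins) against the distance from the IME2 midpoint at 10, 15, 20, 25, 30, 35, 40, 50 and 60 min, for the deletion strains (left) and the retaining strains (right) with SSDDCS (top) and without (bottom). The dotted horizontal line marks 1.5, and the gap in the lines at the left of ARS1008 is the stretch with no bins. In the deletion strains the 25 and 30 min lines run below the 20 min line around and to the right of IME2, and in the retaining strains they lie above it.

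The copy number at IME2, taken as the scaled ratio to G1, did not climb steadily in the deletion strains. In the SSDDCS deletion strain the mean of its 10 bins was 1.141, 1.297, 1.481, 1.466, 1.351, 1.287, 1.372, 1.496, 1.564, 1.706 and 1.857 at the successive timepoints, and the SD over bins was between 0.034 and 0.076. Up to 15 min these values were at the median of all bins (1.139, 1.299 and 1.479) and close to the bulk values (1.14, 1.302 and 1.484). They then dropped away from the median, to 0.691 of it at 30 min. Each sample's ratios are scaled to its bulk value, so a fall in the ratio is not a measured loss of copies. Without SSDDCS the deletion strain had means of 1.038, 1.100, 1.221, 1.307, 1.179, 1.201, 1.253, 1.454, 1.632, 1.777 and 1.932, at 0.911 of the genome median at 20 min and 0.680 at 35 min. The SSDDCS retaining strain had 0.997, 1.063, 1.288, 1.589, 1.803, 1.904, 1.960, 1.984, 1.973, 1.969 and 1.994. The sml1∆ retaining strain had 1.017, 1.029, 1.105, 1.386, 1.721, 1.939, 1.995, 2.097, 2.049, 2.053 and 2.022. In the retaining strains the locus thus passed through the middle of its rise between 15 and 25 min, while in the deletion strains it stood lower at 25 and 30 min than at 20 min.

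The fall, once smoothed, was confined to a block of bins centered to the right of IME2, though single bins fell elsewhere too. Between 20 and 30 min the ratio fell by over 0.1 in 58 of 225 segment bins of the SSDDCS deletion strain, against 155 of all 11314 bins (1.37%). In the sml1∆ deletion strain it fell in 28 of 226, against 73 of all 11307 bins (0.646%). Most of the single bins that fell thus lay outside the segment. In the SSDDCS and sml1∆ retaining strains it fell in 0 of 227 bins each, against 0.0795% and 0.00884% of all bins. By position, 5 of 84 bins left of ARS1008 fell in the SSDDCS deletion strain, 19 of 24 between ARS1008 and ARS1009, 32 of 70 between ARS1009 and ARS1010, and 2 of 47 to the right. Without SSDDCS these counts were 0 of 85, 6 of 24, 22 of 70 and 0 of 47. After averaging over 11 bins, 57 bins between 205001 and 262000 fell in the SSDDCS and 25 between 220001 and 257000 in the sml1∆ deletion strain, and none did elsewhere in the genome. The deepest smoothed change was -0.243 at 233001 to 234000 in the SSDDCS and -0.166 at 245001 to 246000 in the sml1∆ deletion strain. Over the same 10 min the bulk value that scales each sample rose, being 1.64 at 20 min and 1.85 at 30 min in the SSDDCS and 1.45 and 1.75 in the sml1∆ deletion strain, and the median bin changed by 0.206 and 0.298.

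**Figure D3:**
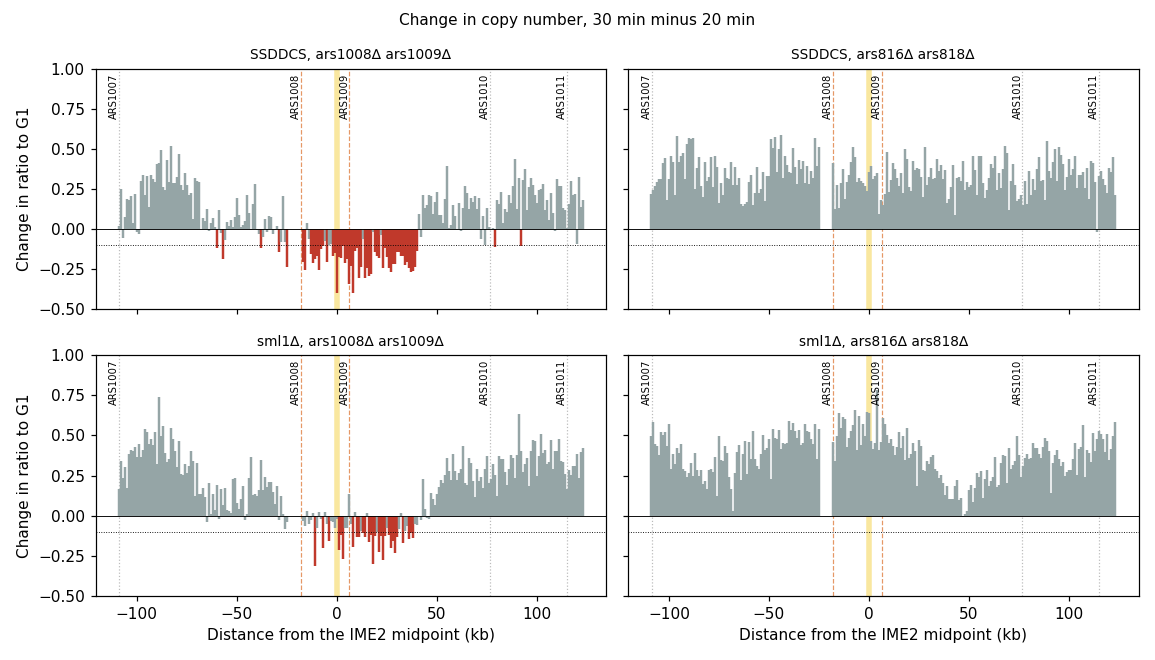
Change in the ratio to G1 of each 1-kb bin, 30 min minus 20 min, against the distance from the IME2 midpoint, for the deletion strains (left) and the retaining strains (right) with SSDDCS (top) and without (bottom). Red bars mark falls of over 0.1 (dotted line). There are 58 and 28 red bars in the SSDDCS and sml1∆ deletion strains and 0 in either retaining strain.

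Late-replicating DNA elsewhere dipped too, but earlier and less. Late bins were taken as the latest 10% outside both segments in the partner strain, 1092 bins for each deletion strain. Their mean ratio was 1.382 at 15 min, 1.355 at 20 min, 1.452 at 25 min and 1.639 at 30 min in the SSDDCS deletion strain, and 1.226, 1.154, 1.285 and 1.521 in the sml1∆ deletion strain. Between 15 and 20 min 22.8% of these bins in the SSDDCS and 39.5% in the sml1∆ deletion strain fell by over 0.1. Between 20 and 30 min 1.01% and 0.0916% did. At 20 min IME2 stood above these late bins by 0.111 in the SSDDCS and 0.153 in the sml1∆ deletion strain, and by 35 min it stood below them, with differences of -0.431 and -0.475. In the ars816∆ ars818∆ strains the corresponding late bins showed no such dip in their mean, being at 1.203, 1.286, 1.388 and 1.583 in the SSDDCS strain and 1.084, 1.221, 1.324 and 1.432 in the sml1∆ strain. The dip is therefore shared by both ars1008∆ ars1009∆ time courses outside the deleted locus, and its part in the fall at IME2 was not tested.

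**Figure D4:**
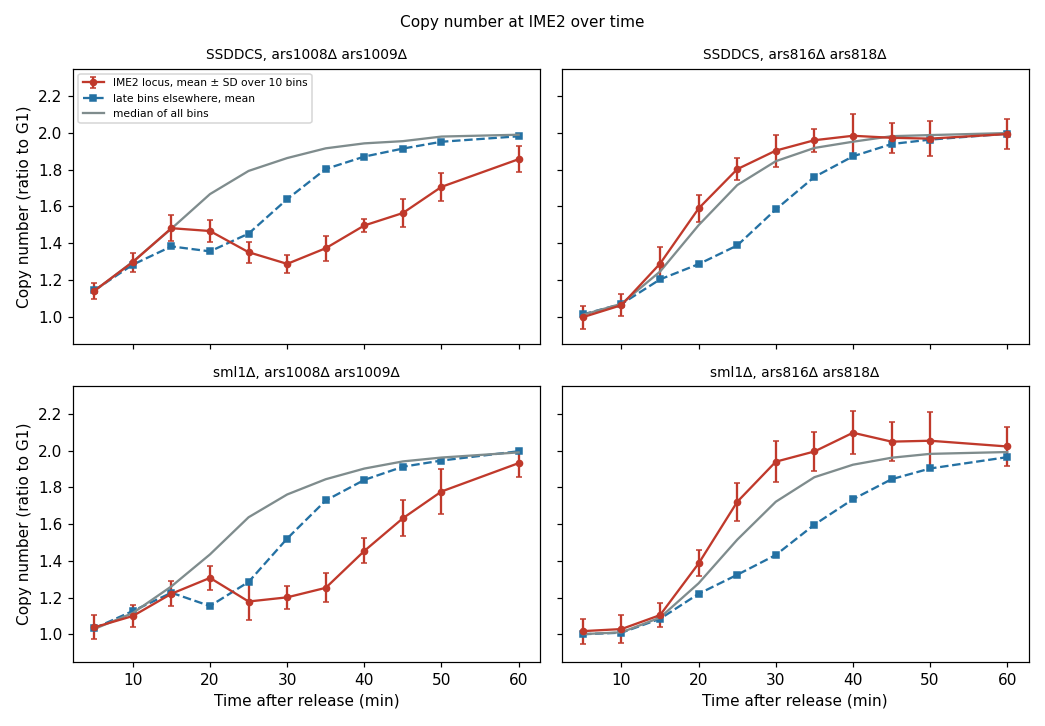
Copy number as the ratio to G1 against time after release for the 10 bins around IME2 (red, mean and SD over bins), the late bins elsewhere (blue squares, mean) and the median of all bins (grey), in the deletion strains (left) and the retaining strains (right) with SSDDCS (top) and without (bottom). In the deletion strains IME2 reaches 1.48 at 15 min and 1.31 at 20 min before it falls, and crosses below the late bins by 25 min.

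The order of the gap and its surroundings changed between 20 and 30 min. In the SSDDCS deletion strain at 20 min the ratio was nearly level over the gap, at 1.503 left of ARS1008 (180001 to 190000), 1.462 between the deleted origins (212001 to 222000), 1.482 right of ARS1009 (237001 to 247000) and 1.496 at 257001 to 262000, all above the 1.430 of the trough between ARS1007 and the left early point (136001 to 146000). At 30 min the same stretches stood at 1.546, 1.317, 1.309 and 1.255, and the left trough at 1.766. Without SSDDCS they were at 1.290, 1.313, 1.275 and 1.268 at 20 min, with the left trough at 1.224, and at 1.479, 1.252, 1.121 and 1.167 at 30 min, with the left trough at 1.603. In both strains the gap was thus above the left trough at 20 min and below it at 30 min. At ARS1010, on the right flank, the ratio was 1.807 at 20 min and 1.836 at 30 min in the SSDDCS deletion strain, where the genome median was 1.667 and 1.863. In the sml1∆ deletion strain it was 1.422 and 1.680, with a genome median of 1.435 and 1.761.

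For the delay of each bin, T_rep in the retaining strain was subtracted from that in the deletion strain of the same SSDDCS status, less the genome-wide median difference of -4.65 min (SSDDCS) and -3.50 min (sml1∆). In the SSDDCS pair 68 of 226 bins were delayed by over 5 min, against 4.8% of all bins, and in the sml1∆ pair 104 of 226, against 10.0% of all bins. Between ARS1008 and ARS1009 this held for 23 of 24 bins in the SSDDCS and 24 of 24 in the sml1∆ pair, with median delays of 20.4 and 20.7 min, and right of ARS1010 for 0 and 9 of 47 bins. The smoothed delay peaked at 21.9 min, at 228001 to 229000 in the SSDDCS pair, and at 21.5 min, at 221001 to 222000 in the sml1∆ pair, and its highest values outside both segments were 4.60 and 7.42 min. It was above 5 min from 184001 to 257000 in the SSDDCS pair, on a narrower stretch than from 164001 to 262000 in the sml1∆ pair.

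**Figure D5:**
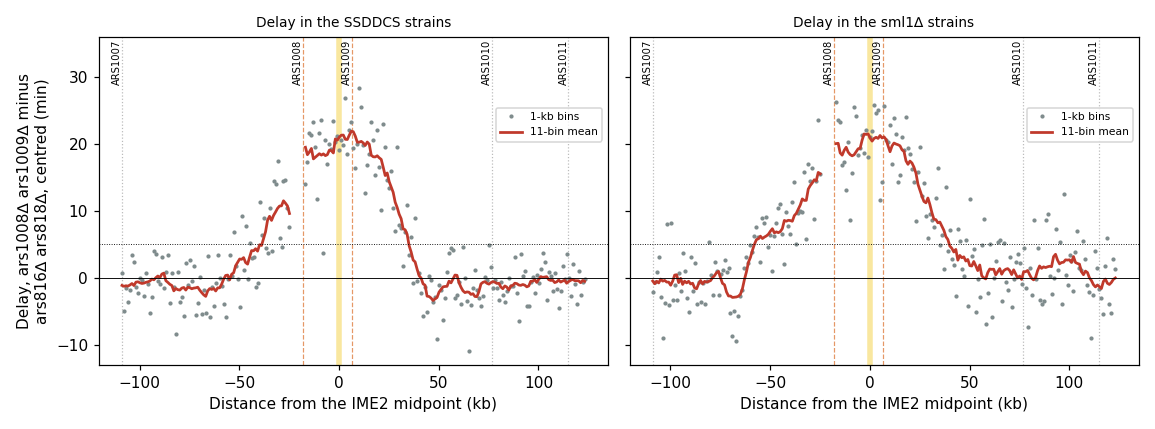
Delay of each 1-kb bin in minutes, deletion strain minus retaining strain after subtraction of the genome-wide median, against the distance from the IME2 midpoint (points) with the mean over 11 bins (line), for the SSDDCS pair (left) and the sml1∆ pair (right). Solid and dotted horizontal lines mark 0 and 5 min. The line peaks at 21.9 and 21.5 min close to IME2 and returns to near 0 toward ARS1007 and ARS1010.

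Genes along the segment trace the delay. At the left end INO1, which encodes inositol-3-phosphate synthase, had delays of -0.36 ± 1.67 min in the SSDDCS and -0.85 ± 4.29 min in the sml1∆ pair. URA2, of pyrimidine synthesis, had 0.22 ± 4.04 and 6.67 ± 2.299 min, and PBS2, which encodes a kinase of the osmotic stress pathway, 1.53 ± 2.52 and 6.17 ± 3.91 min. ASF1, a histone chaperone gene next to the missing bins, was delayed by 9.04 ± 2.03 and 19.5 ± 5.74 min. The sml1∆ pair had the larger delay at URA2, PBS2 and ASF1 and the smaller at INO1, differences that were not tested. CCT7, a subunit of the cytosolic chaperonin, was delayed by 22.1 ± 1.02 and 19.1 ± 3.63 min, and the 3 bins of IME2 by 20.3 ± 1.05 and 20.3 ± 2.10 min. To the right of ARS1009, GSH1, of glutathione synthesis, was delayed by 16.4 ± 3.62 and 19.9 ± 5.01 min, and BCK1, a kinase of the cell wall integrity pathway, by 13.3 ± 4.87 and 12.2 ± 5.16 min. The delay then faded over SRS2, a DNA helicase gene, at 4.44 ± 4.11 and 6.55 ± 5.08 min. At NET1, whose product holds the Cdc14 phosphatase in the nucleolus, it was 1.54 ± 2.38 and 1.81 ± 1.95 min. SMC3, a cohesin subunit, had -1.65 ± 1.24 and -0.75 ± 5.03 min, and PSF2, a subunit of the replicative helicase complex GINS, -3.63 and -0.21 min in its single bin. The 4 bins within 2 kb of ARS1009 were delayed by 20.3 ± 3.02 and 18.0 ± 6.34 min, while those at ARS1007 (-2.14 ± 2.37 and -0.46 ± 1.29 min), ARS1010 (1.18 ± 2.77 and 1.02 ± 2.79 min) and ARS1011 (0.15 ± 2.55 and 0.18 ± 3.18 min) were within their spread of 0. Only 1 bin near ARS1008 was measured in the deletion strains, with T_rep of 24.8 min in the SSDDCS and 45.2 min in the sml1∆ strain, against means of 15.8 and 21.5 min over 2 bins in the SSDDCS and sml1∆ retaining strains. For comparison, NDT80 on Chr VIII, a meiotic transcription factor gene near the origins deleted in the other strains, had a T_rep of 12.4 ± 1.25 and 24.6 ± 1.41 min in the SSDDCS and sml1∆ strains that lack the Chr X origins, against 30.3 ± 2.17 and 33.2 ± 2.66 min in the SSDDCS and sml1∆ strains that lack ARS816 and ARS818.

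DPB11, whose product binds Sld2 and Sld3 when origins fire, lies in the segment and has an added copy at trp1 in the SSDDCS strains. Across it the T_rep profile of the SSDDCS deletion strain had a step, which was picked out after the values were seen. The 6 bins to its left (256001 to 262000) averaged 28.4 ± 1.52 min and the 6 to its right (265001 to 271000) 20.2 ± 0.764 min, a step of 8.20 min that 26 of 10770 such overlapping windows over the genome equalled or passed. The bins of DPB11 itself stood at 24.8, 21.2, 16.5 and 20.9 min. As the gene ends at 265051, the last of its bins is also the first of the 6 right bins. In the SSDDCS strains the DPB11 bins can hold reads of the added copy as well, so they need not reflect the Chr X locus alone. They include the bin at 262.5 kb given above as the latest of the SSDDCS retaining strain. The right edge of the fall lay at this step, since between 20 and 30 min the left bins changed to 1.27 at 30 min (1.51 at 20 min) and the right bins to 1.64 (1.48 at 20 min). The step was 3.82 min in the sml1∆ deletion strain, in the SSDDCS retaining strain 1.33 min (28.4 ± 3.77 and 27.0 ± 1.95 min) and in the sml1∆ retaining strain -1.05 min. Of the SSDDCS strains, which share the added copy, only the deletion strain showed a step of this size, and what sets it was not tested.

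The segment was earlier with over-expression of the initiation factors than without, whether or not it held its central origins, as the genome was. In the deletion strains T_rep with SSDDCS minus that without was -8.45 ± 5.25 min over the segment, with a genome-wide median of -5.50 min, and -4.89 ± 4.59 min at the 10 bins of IME2. In the retaining strains it was -5.56 ± 3.70 min over the segment, with a genome-wide median of -4.18 min, and -2.83 ± 2.26 min at IME2. In both pairs the difference was largest right of ARS1010 (-10.3 ± 4.16 min with ARS1008 and ARS1009 deleted and -7.45 ± 3.69 min with them) and smallest between ARS1008 and ARS1009 (-4.70 ± 7.70 and -3.30 ± 2.07 min).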

How the data were processed

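DNA of 4 strains was sequenced in 1 time course each. The submitters' processing notes name Bowtie2 2.3.4, SAMtools 1.7.2, bedtools 2.26.0 and sacCer3. The authors deposited a ratio per 1-kb bin, reads of a timepoint over reads in that strain's G1 library, brought to a bulk copy number (1 to 2) that flow cytometry gave. They deposited that bulk number too, also as a ratio. An error in a bulk value moves all bins of a sample together. The 44 files hold 11312 to 11328 bins and no read counts, so the depth is unknown and no counting interval was computed.

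Each bin with at least 6 timepoints was fitted by least squares with a logistic curve rising from 1 to 2. Python 3.11.15, numpy 2.4.6, pandas 2.3.3 and scipy 1.17.1 were used, with matplotlib 3.10.9 for figures. The fit was tested on data simulated from curves that only rise, with noise added, so a fall was not covered. T_rep was the time at 1.5, kept between 0 and 60 min. A curve that only rises averages over a fall. Smoothed profiles are centered means of 11 bins. Rates leave out 5 kb at each end of a flank. Flanks elsewhere join local extremes of smoothed T_rep within 15 kb.

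No test between strains was possible with 1 time course each. Genes named are IME2, the annotated origins, genes spread over the segment chosen for known roles, the genes in the latest bins, and NDT80. The members, lists and thresholds were chosen with earlier results of these data known. G1 read files were not used here.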

Additional observations from a re-analysis of the deposited data

Results flagged for a closer look

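DPB11 was the named gene whose delay differed in sign between the pairs by over 1 min on either side, with -2.20 ± 2.69 min between the SSDDCS strains and 2.27 ± 4.03 min between the sml1∆ strains (SD over 4 bins). Both values are within their spread over bins of 0, and the difference between the pairs was not tested. In the SSDDCS strains the bins of DPB11 can also hold reads of its added copy at trp1.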

How the results depend on the processing

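No paired analysis was possible because each strain has 1 time course and no replicate numbers are shared between groups. Of 250 alternative values, 223 stayed within the limits set for them and 27 moved. A change of direction could be recorded only for rates and for lags larger than their limit, and none was. The limits were 1 SE of a rate, 1 SD over bins of a lag and 1.5 times a count. For a meeting position the limit was the distance from the center of its 1-min span to the edge of that span. The IME2 lags of the SSDDCS and sml1∆ retaining strains all stayed. The meeting position in the SSDDCS deletion strain was 241.5 kb by the first crossing of 1.5 and 237.5 kb by the lowest ratio over the genome median from 20 to 40 min, and 220.5 to 224.5 kb without 1 timepoint. The positions of 241.5 and 237.5 kb counted as moved, though both lie inside the 1-min span of 220001 to 244000. In the sml1∆ deletion strain it was 236.5 to 237.5 kb without 1 timepoint.

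The right-flank rates moved under 9 alternatives in the SSDDCS and 5 in the sml1∆ deletion strain. In the SSDDCS deletion strain the rate was 2.81 kb per min with a free upper asymptote, 2.67 by the first and 1.66 by the last crossing, 2.89 with a mean over 5 bins, 2.77 with the right end searched to 320 kb (chosen after seeing the data), and 2.69 to 5.01 without 1 timepoint, the lowest without 5 min. In the sml1∆ deletion strain it was 3.69 by either crossing, 3.54 with 5 bins, 3.65 to 320 kb, and 5.88 to 7.24 without 1 timepoint. The left rate of the SSDDCS deletion strain was 2.23 by the last crossing and 3.22 to 4.16 without 1 timepoint, and that of the sml1∆ deletion strain 5.09 to 6.11. The IME2 lag of the SSDDCS deletion strain was 27.5 min by the last crossing and 18.5 to 21.3 min without 1 timepoint.

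Delays of over 10 min were counted in 59 bins of the sml1∆ pair. Falls in the SSDDCS deletion strain numbered 28 at over 0.2, 36 between 15 and 25 min and 89 after division by the genome median. In the sml1∆ deletion strain they numbered 43 at over 0.05, 7 at over 0.2 and 92 after that division. With no read counts, the depth behind a single bin cannot be judged.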
